A study of Mus musculus with 17 samples.

Results

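Which genes gave a bright, a dim or a variable signal in wild-type dentate gyrus was described from 7 of the 17 arrays of the series, those whose label gives the genotype WT and which carry no CA13 mark. The KO line of the study joins floxed Foxo1, Foxo3 and Foxo4 alleles with hGFAP-cre, a transgene active in progenitors shared by neurons and glia, and the general methods give a mixed FVB and B6 background. The other unmarked arrays came from 8 samples labelled FOXO 1/3/4 KO, and 1 WT and 1 KO library carry the CA13 mark, which the sources do not explain. WT here means the label WT: which floxed alleles those animals carried, their age and their sex are not stated for the array samples, and the label names the tissue only as brain. The methods give laser capture of dentate gyrus, a dissection that lifts a chosen cell layer from a section. Each WT sample has a mark of its own (206, 41, 437, 385, 393, 392 and MS17), and since nothing says outright that each is a separate animal, spreads and p-values measure the spread between these samples, which may be technical. The labels also carry an array code, whose meaning is not stated: WT 393 and 392 share a code with KO 391 and 390, called the smaller array series here, and the other 5 WT arrays share another code with the remaining arrays, called the larger series.

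The dentate gyrus is the entry of the hippocampal circuit. Its granule neurons lie packed in a thin layer, receive input from the entorhinal cortex and send mossy fibres to area CA3, and new granule neurons are added from progenitors at the inner edge of that layer. The transcription factor PROX1 gives and maintains their identity, the calcium buffer calbindin (Calb1) fills their cell bodies and axons, and FOXO1 is a transcription factor that insulin signaling keeps out of the nucleus.

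Signals are given as log2(signal + 32) after quantile normalization over the 7 arrays, for the brightest probe set of each of 18193 genes. A level between genes is a level of signal: brightness depends on the probes as well as on the mRNA. As a measure of background, the 69 olfactory and vomeronasal receptor genes, which are used in the nose, had a median of 5.98, and their 95th percentile, 7.12, served as the limit above which a gene was counted as having signal. By construction 4 of the 69 lay above it, the highest being Vmn2r29 at 8.0. Of all genes, 11021 (60.6%) had a mean above the limit, 9362 were above it on each of the 7 arrays and 4970 on none. A gene with more probe sets had more chances to pass, since its brightest set was used. The receptor genes had 77 probe sets for 69 genes, against 34945 for all 18193. In lists used below, forebrain transcription factors had 88 for 21 genes and Hox genes 48 for 33. Of 9010 genes with several probe sets, 4911 (54.5%) had sets on both sides of the limit. The shares of lists were not adjusted for this. The arrays correlated with Spearman coefficients of 0.855 to 0.931, and WT 392 stood apart. Its median correlation with the others was 0.866 against 0.913 to 0.925 for the rest, and it was the array farthest from the median of the others for 48.4% of the genes above background. Without it, 10893 genes lay above background. In bulk samples, fewer cells of a type and less RNA per cell cannot be told apart.

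**Figure D1:**
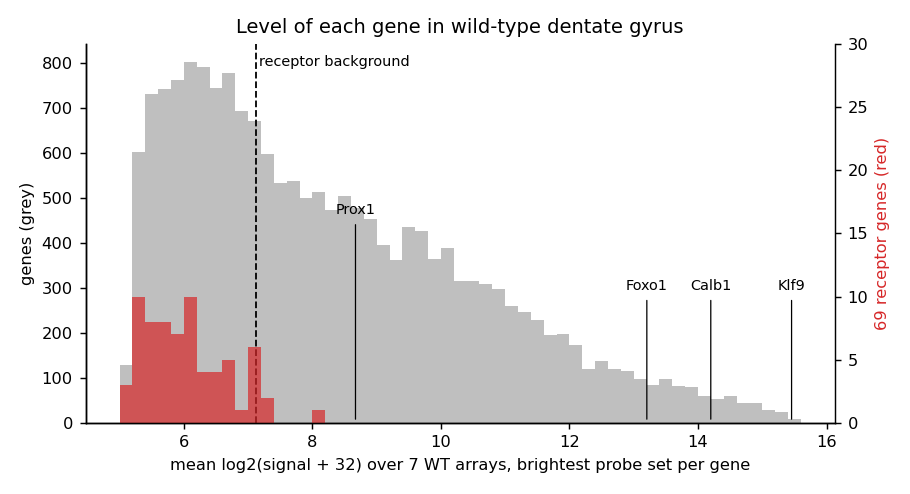
Mean log2(signal + 32) over the 7 WT arrays (x axis) of all 18193 genes (grey, left axis) and of the 69 receptor genes (red, right axis), in bins of 0.2. The dashed line is the receptor background of 7.12; Prox1 at 8.67 lies above it and Foxo1, Calb1 and Klf9 lie far to the right.

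Strong signal of the identity markers Calb1 and Foxo1 was seen in every array. Calb1 lay at 14.00 (WT 385) to 14.57 (WT 437), with a median of 14.18. Foxo1 lay at 12.33 (WT MS17) to 13.96 (WT 392), with a median of 13.28. Their means were 14.20 ± 0.20 and 13.20 ± 0.51 (SD, n = 7). Prox1 was dimmer and split the arrays. It read 8.95 to 9.20 in WT 206, 41, 437, 385 and MS17, and 8.03 and 7.38 in WT 393 and 392, the arrays of the smaller series. A dimmer Prox1 probe set also had its lowest value, 5.40, in WT 392, while in WT 393 it read 7.23, inside the range of 7.11 to 7.65 in the other 5 arrays, and the dimmest set, below background on average, had its highest value, 6.90, in WT 392. The low value of WT 392 was therefore shared by the dimmer set and that of WT 393 was not, though this set reads near background. The dimmest set is too dim to show a drop.

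Each of the 18 granule neuron markers lay above the receptor background, with a median of 10.44, against a median of 7.79 over all genes. Dsp, a desmosomal protein that marks granule neurons in the hippocampus, lay at 14.60 ± 0.23, Stxbp6, a binder of the vesicle fusion machinery, at 13.57 ± 0.14, Dock10, an activator of small GTPases, at 13.33 ± 0.36, and C1ql2, a synaptic organiser of mossy fibres, at 9.22 ± 0.67 (SD, n = 7). The list mean per array ran from 10.92 to 11.17. No array therefore lacked granule cell signal, and the list mean of WT 392, 10.98, lay within that range.

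A library of WT 437 that carries the CA13 mark served as a second reading of the list. With no replicate there is no test. When normalized together with the 7 WT arrays, its granule list mean was 8.09 against 11.17 in the unmarked library of the same mark, and 17 of the 18 markers lay below each of the 7 WT arrays, as did 15.4% of all genes. Dsp read 7.41 in the marked library and 14.71 in the unmarked one, Dock10 8.47 and 13.46, and Prox1 5.17 and 9.15. Calb1 read 11.90 and 14.59, and Foxo1 9.81 and 13.37. Both were lower in the marked library but stayed above the receptor background there, so signal above that limit alone does not set granule samples apart. The 13 measured markers of CA pyramidal neurons, the hippocampal neurons beyond the dentate gyrus, went the other way. Their list mean was 10.82 in the marked library and 8.33 in the unmarked one, and 11 of the 13 lay above each WT array, as did 17.6% of all genes. Neurod6, a transcription factor of pyramidal neurons, read 14.11 and 9.32, and Wfs1, a protein of the endoplasmic reticulum that marks CA1, read 11.81 and 9.38.

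The promoters of a few of these genes are shown to set a gene that is bright in these samples beside genes of other tissues. Each is the run of 120 bases just before the first listed transcription start in RefSeq (GRCm38.p6), 5′ to 3′ on the strand of the gene, with every CG dinucleotide in capitals. Foxo1 is at chr3:52268217-52268336 (+), Prox1 at chr1:190170828-190170947 (-), Klf9 at chr19:23141106-23141225 (+), the sperm gene Prm2 at chr16:10792106-10792225 (-) and the olfactory receptor gene Olfr480 at chr7:108066796-108066915 (-).
Foxo1: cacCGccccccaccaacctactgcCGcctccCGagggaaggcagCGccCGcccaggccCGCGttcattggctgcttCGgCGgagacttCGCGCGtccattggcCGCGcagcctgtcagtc
Prox1: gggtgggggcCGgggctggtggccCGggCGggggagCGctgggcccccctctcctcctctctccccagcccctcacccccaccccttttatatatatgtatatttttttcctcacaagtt
Klf9: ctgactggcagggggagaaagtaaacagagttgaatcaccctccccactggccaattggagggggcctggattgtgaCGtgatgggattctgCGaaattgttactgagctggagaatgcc
Prm2: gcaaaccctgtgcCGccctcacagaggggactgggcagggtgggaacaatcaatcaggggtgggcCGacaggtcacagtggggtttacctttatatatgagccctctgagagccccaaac
Olfr480: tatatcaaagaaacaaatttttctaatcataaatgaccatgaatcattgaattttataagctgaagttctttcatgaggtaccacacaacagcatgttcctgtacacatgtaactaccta
Foxo1 held 14 CG, Prox1 4, Klf9 2, Prm2 2 and Olfr480 0. Among all 27025 promoters of this length in the RefSeq table used, a share of 81.7% held at least 1 CG, and 6.76% held TATAAA, read on both strands, which also occurred in Prox1, Prm2 and Olfr480. The median number of CG was 11 over 814 of the 1000 brightest genes, 10 over 16 of the 18 granule neuron markers and 1 over 58 of the 69 receptor genes. For the genes not above background only 77.0% matched a promoter, under the 80% required, so a comparison over all genes is void. The Klf9 promoter, with few CG, shows that the numbers over lists do not hold gene by gene, and a match of letters is a description only.

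The 20 brightest genes had means of 15.26 to 15.57. Among them were Ywhab, a 14-3-3 adaptor protein (15.57 ± 0.07), Hspa8, the constitutive heat shock cognate chaperone (15.48 ± 0.08), Klf9, a transcription factor induced by glucocorticoid and thyroid hormone (15.46 ± 0.05), Tuba1a, an α-tubulin of young neurons (15.39 ± 0.11), Gpm6a, a membrane protein of axons, and Stmn3, a regulator of microtubules. Uqcrb, a subunit of respiratory complex III, and the ribosomal protein genes Rpl13a, Rps28, Rps18 and Rps29 were among them too. Klf9 read 15.41 at its lowest and 15.54 at its highest. The small spread at the top has a ceiling in it, since quantile normalization gives each array the same set of top values. The 100 brightest genes held 13.5% of the summed signal.

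The order at the top rested on the kind of probe set. Of the 20 brightest genes, 19 were read by probe sets whose suffix (_s_at, _x_at or _a_at) marks probes that can match more than 1 transcript or gene, against 21.2% of all genes. Stmn3 read 15.30 in the probe set used and 9.23 in its other one, and Cntd1, a cyclin-like gene, read 15.27 in the set used and 7.61 and 6.38 in the other ones. With only probe sets without these suffixes, 1 of the 20 remained, Ints6 (15.32 ± 0.17). That order, named after its values were seen, was then led by Ints6, Kalrn, which codes for kalirin, a protein of dendritic spines (15.26 ± 0.04), Ttc3 (14.99 ± 0.11), the long noncoding RNAs Miat (14.96 ± 0.11) and Norad (14.92 ± 0.30), and Ddn, the postsynaptic protein dendrin (14.89 ± 0.18). Dsp and Pcp4, a calmodulin-binding protein, were also among its 20. With the median of all probe sets of a gene, 6 of the 20 remained, with Tuba1a at the top.

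Lists of housekeeping and neuronal genes lay high on the scale. Of 50 cytosolic ribosomal protein genes 46 were above background, with a median of 12.83 and list means of 11.89 to 12.07 on 6 arrays and 12.51 in WT 392. Of 91 genes of the respiratory chain and ATP synthase 84 were, with a median of 12.21. Each of the 11 measured genes of calmodulin and calcium signaling lay above background, with a median of 13.13. Pcp4 lay at 14.68 ± 0.09, Ppp3ca, the catalytic subunit of calcineurin, at 14.62 ± 0.20 and Camk2n1, an inhibitor of CaMKII, at 14.57 ± 0.34. Nrgn, the calmodulin-binding neurogranin, spread more, from 11.52 in WT 385 to 13.24 in WT 392. All of the 15 measured genes of glycolysis and the malate shuttle were above background, and Pgk1, phosphoglycerate kinase, read 15.24 ± 0.04. These shares stand beside 60.6% of all genes.

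All of the 21 measured forebrain transcription factors lay above background, with a median of 11.88. Next to Klf9 stood Mef2c (13.69 ± 0.30), Nfix (13.37 ± 0.46) and Bcl11b (13.28 ± 0.38), factors of neuronal maturation. Neurod1, which drives the differentiation of granule neurons, read 11.63 ± 0.14, and the receptors for corticosteroids Nr3c2 (mineralocorticoid) and Nr3c1 (glucocorticoid) read 12.78 ± 0.21 and 10.75 ± 0.62. By contrast, 3 of the 33 measured Hox genes, which pattern the body axis behind the forebrain, lay above background. These were Hoxa5 (9.03 ± 0.44), Hoxa9 (7.59 ± 0.38) and Hoxa3 (7.35 ± 0.14). Of 13 factors of the hindbrain and hypothalamus 3 lay above it, Gata2 (8.61), Otp (8.20) and Sim1 (7.31).

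Of the FOXO and insulin signaling genes 16 of 18 lay above background. The FOXO factors differed in signal: Foxo3 lay at 10.79 ± 0.34 and Foxo4 at 6.08 ± 0.61, under the receptor background. Foxo4 exceeded the limit on none of the arrays, with values from 5.29 to 6.83. Sesn1, a sestrin that restrains mTORC1 and a known FOXO target, lay at 13.03 ± 0.41, and Sgk1, a kinase of the same pathway, at 11.79 ± 0.36. Irs2, an adaptor of the insulin receptor, read 6.16 ± 0.77, below background, while Insr, the receptor itself, read 10.61 ± 0.30. A dim reading cannot tell a silent gene from a weak probe set.

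Receptors for transmitters gave strong signals for a few subunits. Gria2, the AMPA receptor subunit that limits calcium entry, read 13.63 ± 0.27, and Grin2b, an NMDA receptor subunit, 11.25 ± 0.26. Grin2a, also an NMDA receptor subunit, read 6.24 ± 0.50, below background. Of the GABA-A receptor genes, Gabrb1 (13.83 ± 0.31), Gabrb2 (13.07 ± 0.11), Gabra2 (12.91 ± 0.56) and Gabra4 (12.18 ± 0.50) gave the highest signals. Of these Gabrb2 spread least, from 12.85 to 13.21. In all, 11 of 14 genes for ionotropic glutamate receptors and 7 of 10 for GABA-A receptors were above background, beside 60.6% of all genes.

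Genes of the stress and activity responses were in the upper and middle range. All of the 10 heat shock genes lay above background (median 12.32), with Hsp90aa1, a cytosolic chaperone, at 14.04 ± 0.19 and Dnajb1, a co-chaperone of the HSP70 family, at 13.40 ± 0.35. The 13 glucocorticoid-responsive genes had a median of 10.50. Nfkbia, the inhibitor of NF-κB, lay at 14.56 ± 0.24 and the metallothionein Mt1 at 13.46 ± 0.51. Of 27 immediate early genes, which are induced by neuronal activity, 20 lay above background, led by Jun (11.97 ± 0.20) and the Homer1 gene (11.91 ± 0.50). Fos read 7.40 in WT 392 and 9.36 to 9.81 in the other 6 arrays, and Nr4a2, an orphan nuclear receptor, 7.67 in WT 392 and 9.32 to 10.77 elsewhere. Among circadian clock genes Dbp, an output factor of the clock, read 13.66 and ran from 13.04 to 14.31.

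Markers of other cell types differed in how many lay above background, beside 60.6% of all genes. Astrocyte markers lay above background for 13 of 15 genes, among them Glul, glutamine synthetase (13.98 ± 0.58), Gja1, connexin 43 (13.67 ± 0.20), and Gfap, the filament of astrocytes (11.77 ± 0.74). The oligodendrocyte list, 10 of 11 above, was led by Mbp, myelin basic protein, at 14.47 ± 0.42. Microglial markers were above background for 7 of 14, with a median of 7.17. The brightest was Csf1r, the receptor for colony stimulating factor, at 13.28 ± 0.56. Aif1 (5.37), Cx3cr1 (6.54) and P2ry12 (6.70) were among those below background. Interneuron markers were above for 12 of 15, with Gad1, the enzyme that makes GABA, at 12.66 ± 0.34, which granule neurons can also transcribe. Markers of CA pyramidal neurons were above for 12 of 13 with a median of 8.34 and none brighter than Ociad2 at 10.29. Of the progenitor and newborn neuron list 7 of 11 lay above, and Dcx, doublecortin, ran from 8.41 in WT 41 to 10.39 in WT 393.

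Blood and distant tissues gave little signal. None of the 3 measured red blood cell genes lay above background, and Hba-a1, α-globin, read 6.95 ± 0.38. Of 10 skeletal muscle genes none, of 10 sperm genes 1 (Prm1, 7.24), of 11 liver genes 1 (Apoa2, 7.44) and of 9 lymphocyte genes 2 (Ms4a1 and Cd8a) passed the limit. An exception among the lists of other tissues was that for epidermis, with 5 of 9 above. Its brightest member, Sbsn, suprabasin, read 11.13 ± 0.60, with 12.43 in WT 392 and 10.66 to 11.20 in the others, and Krt10, keratin 10, read 10.44 ± 0.28. On each of the 7 arrays both genes read above 8.0, the highest mean of a receptor gene. The source of this signal was not tested.

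**Figure D2:**
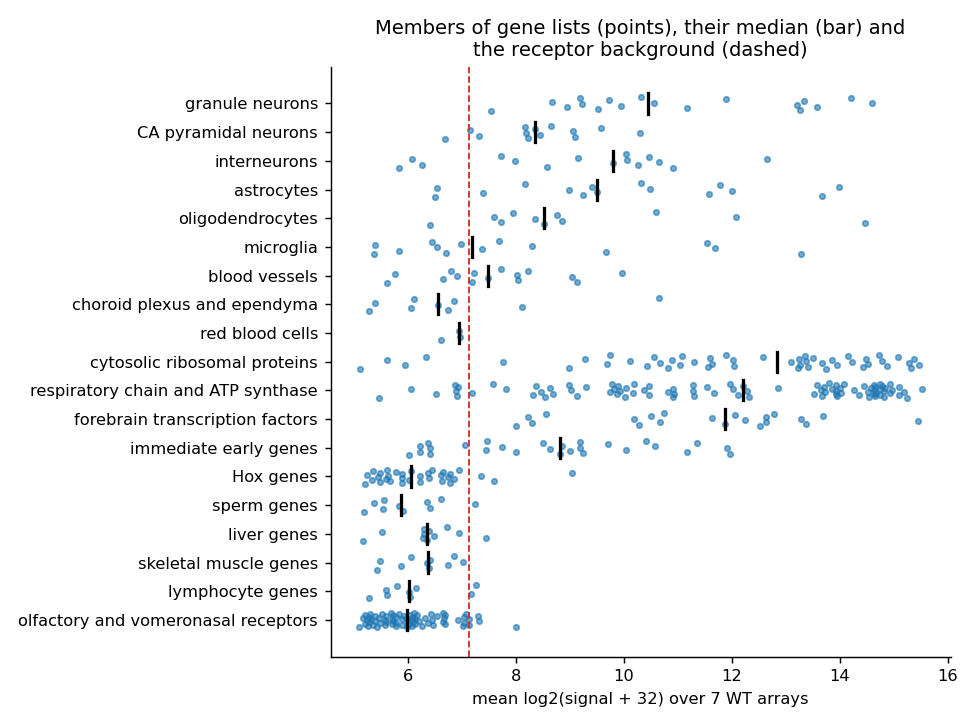
Mean log2(signal + 32) over the 7 WT arrays (x axis) for each measured member (blue points) of 19 lists (rows), with the list median (black bar) and the receptor background of 7.12 (red dashed line). Ribosomal, respiratory chain and forebrain factor lists lie to the right, and Hox, sperm, liver, muscle, lymphocyte and receptor lists have their medians left of the line.

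Variation between arrays was small for most genes. The median SD was 0.38 over all genes and 0.25 over the 1000 brightest, and 154 genes (0.846%) had an SD of at least 1. Without WT 392 there were 95 such genes. The counts without each of the other arrays were 178 to 201. The choice of the value added before the log moved this count more, to 3016 with 1 and to 43 with a larger value than 32. For 42 genes the sorted values of the 7 arrays had a gap of at least 2 on the log2 scale. Such a gap can set a group of arrays apart, as for Xist, or a single array, as for Gm34303.

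Sex-linked genes were the clearest case. Xist, the RNA that coats the inactive X chromosome, read 14.32, 14.19 and 14.36 in WT 41, 437 and 385 and 6.94 to 7.91 in the other 4 arrays. Eif2s3y, a translation factor gene on the Y chromosome, went the other way, at 6.13, 5.13 and 5.65 in the same 3 arrays and 11.11 to 11.69 in the others. Kdm5d, a histone demethylase gene on the Y chromosome, read 5.76 to 6.07 in the 3 arrays and 9.43 to 10.27 in the 4. The labels give no sex. Both arrays of the smaller series are among the 4 with low Xist.

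Ttr, transthyretin, the thyroid hormone carrier made by the choroid plexus, had the widest range of the 20 most variable genes. It read 5.36 in WT 206, 12.68 in WT 41, 7.54 in WT 437, 15.24 in WT 385, 11.75 in WT 393, 9.08 in WT 392 and 12.91 in WT MS17. In WT 385 it reached the level of the brightest genes, and in WT 206 it lay below the receptor background. Of its 3 other probe sets, the pair with means of 10.27 and 9.50 had SDs of 2.99 and 2.88 and the same highest and lowest arrays. The other measured choroid plexus and ependyma markers did not show such levels: only Clic6, a chloride channel protein, also lay above background (8.11 ± 0.25), and Folr1, the folate receptor (6.85), and Kl, Klotho (6.74), lay below it. The part of choroid plexus tissue in the Ttr signal was not tested.

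Some markers of neighbouring brain regions varied between arrays. Pmch, the precursor of melanin-concentrating hormone of the lateral hypothalamus, was brightest in WT 385 and read 10.17 in WT 393 and 9.11 in WT 437, and 6.80 to 7.97 in the other 4. Short lists of thalamic and hypothalamic genes were added after this was seen and are a description. The thalamic list mean was highest in WT 385 (8.82) and lowest in WT 392 (7.06), and the hypothalamic one ran from 6.72 in WT 206 to 8.11 in WT 393. Zic1, a transcription factor of the thalamus and septum, read 12.53 in WT 385 and 8.18 to 11.06 in the others. Slc17a6, the vesicular glutamate transporter of subcortical neurons, read 9.42 in WT 385 and 5.30 to 8.33 in the others. Irs4, an insulin receptor substrate of the hypothalamus, read 9.63 in WT 393, 8.98 in WT 385, 8.44 in WT MS17 and 6.05 to 7.09 in the other 4. The genes named here are among the most variable of these lists. An SD of at least 1 was found in 3 of 10 thalamic and 4 of 13 hypothalamic genes, beside 0.846% of all genes. Others spread little, such as Oxt (SD 0.25) and Lhx9 (SD 0.26), and the list medians of the SD were 0.465 and 0.467. The granule neuron list mean was 10.92 in WT 385, 10.97 in WT 393 and 10.98 in WT 392, in a range of 10.92 to 11.17 over the 7. Whether tissue beside the dentate gyrus is part of these samples was not tested.

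Several of the most variable genes had other probe sets with a much smaller spread, some of them near or below background. Pttg1, securin, read 13.40, 13.72 and 12.92 in WT 206, 41 and 392 and 8.23 to 9.44 in the other 4, while its 2 other probe sets stayed at means of 6.84 and 6.31 with SDs of 0.90 and 0.72. Rps9, a ribosomal protein gene, read 8.99 and 8.53 in WT 437 and 393 and 12.20 to 13.13 in the other 5, and its 2 other sets had SDs of 0.40 and 0.28. Mtmr7, a phosphoinositide phosphatase, read 11.42 and 12.78 in WT 206 and MS17 and 8.25 to 8.86 elsewhere, beside an SD of 0.41 in its other set. B3galt6, a galactosyltransferase of proteoglycans, split into 9.97 to 10.10 in WT 206, 41 and 437 and 6.23 to 7.22 in the other 4. Its other sets had SDs of 0.26 and 0.22. The brightest other sets of Rps9, Mtmr7 and B3galt6 had means of 8.29, 9.44 and 7.40. Eif2s3y and Kdm5d, which split with Xist, also had dim and flat other sets. Their highest other SDs were 0.68 and 0.49 and their highest other means 6.55 and 6.21. A small spread in a dim set therefore does not show that the sets disagree. Of the 20 most variable genes 14 had other probe sets, and in 4 of these (Xist, Ttr, Fmod and Mndal) another set had an SD of at least 1.

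**Figure D3:**
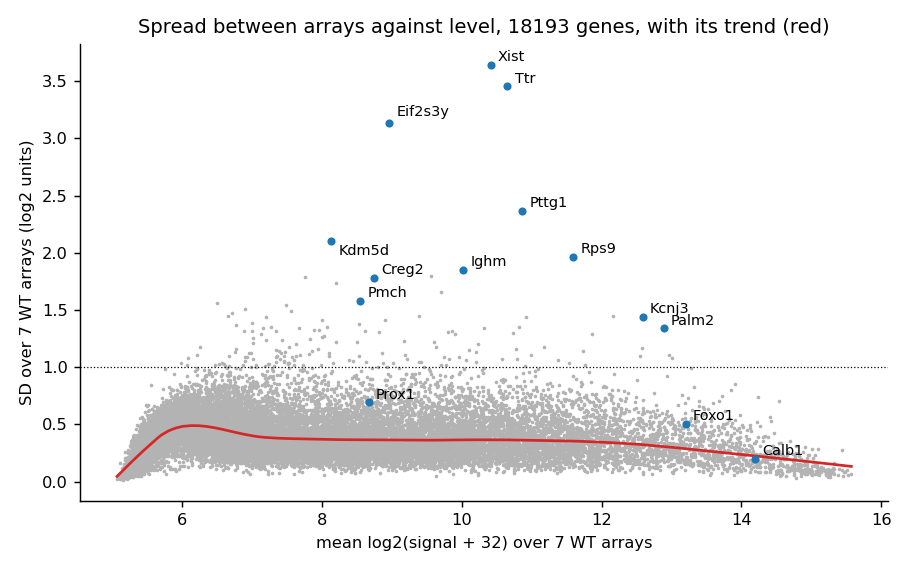
SD over the 7 WT arrays (y axis, log2 units) against mean log2(signal + 32) (x axis) for 18193 genes (grey), with the lowess trend (red) and an SD of 1 (dotted). Xist, Ttr, Eif2s3y, Pttg1 and Kdm5d have SDs of 2.10 to 3.64, and Calb1 at 0.20 lies near the trend.

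Measured against genes of like brightness, a further group stood out. Among the genes above background, the largest ratios of the SD to its trend on the mean outside the 20 were those of Kcnj3, Palm2 and Acp1, at 4.44, 4.35 and 4.25. Kcnj3, the GIRK1 subunit of potassium channels opened by G proteins, read 13.27 to 14.02 in WT 206, 41, 437 and 385 and 10.75, 11.07 and 11.44 in WT 393, 392 and MS17. Palm2, a paralemmin of membranes, read 10.26 in WT MS17 and 12.32 to 14.08 in the others. Acp1, a low molecular weight phosphatase, read 10.22 and 10.09 in WT 393 and 392 and 12.22 to 13.67 in the 5 arrays of the larger series. Ptgds, the prostaglandin D synthase of glia and meninges, read 14.28 in WT 392, 12.83 in WT 393 and 10.74 to 11.93 in the others.

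**Figure D4:**
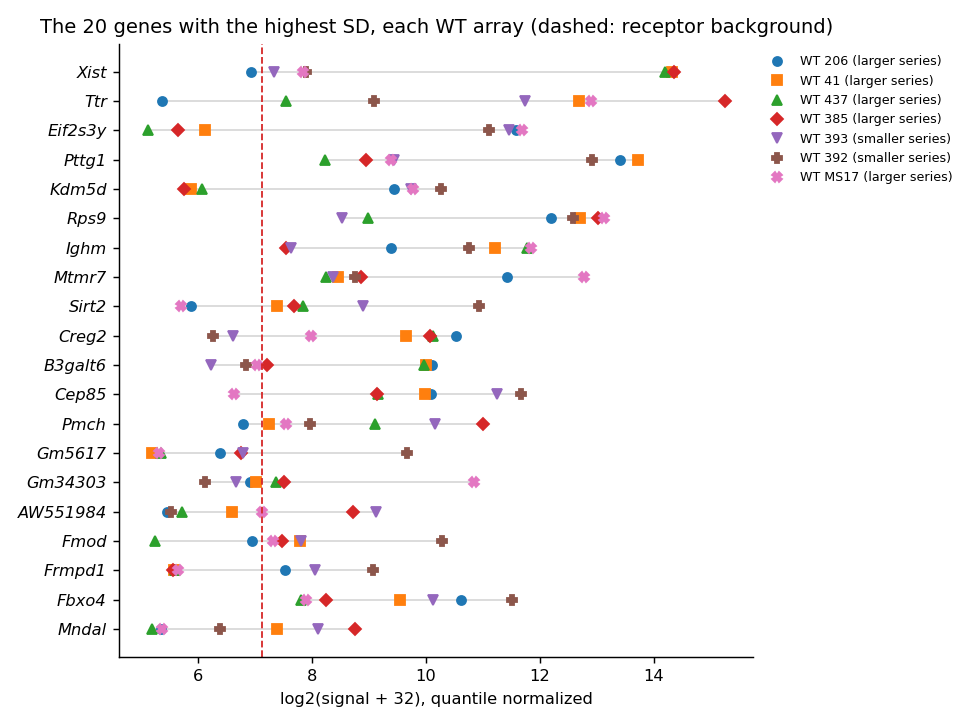
log2(signal + 32) of the 20 genes with the highest SD (rows) in each of the 7 WT arrays (symbols, with the array series), and the receptor background (dashed line at 7.12). Xist and Eif2s3y form separate clusters of 3 and 4 arrays in opposite order, Ttr is spread from 5.36 to 15.24, and Gm34303 is high in WT MS17 alone.

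The genes that varied in WT also varied in the KO arrays, which the ranking had not used. Of the 100 genes with the highest SD in WT, 85 were among the 1820 genes (10.004% of all, by definition) with the highest SD over the 8 KO arrays, and 85 again without the KO library labelled 433. All of the 20 most variable genes were there with the 8 arrays and 18 without that library. Ttr ran from 5.97 to 14.11 in KO, and Pttg1 again fell into separate groups, with 13.21 to 13.72 in 4 KO arrays and 8.06 to 8.43 in the other 4. Rps9 read 12.12 to 12.64 in 3 and 7.81 to 9.02 in 5. Gm34303, high in WT MS17 alone among the WT arrays, read 8.5 in KO 433 and 10.7 to 11.9 in the other KO arrays. What this gene's level in WT MS17 shares with the KO arrays was not tested. No test goes with these shares.

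The array series is a split by a label code whose meaning is not stated. With limma, comparing WT 393 and 392 with the 5 arrays of the larger series, 1196 of 45037 probe sets (2.66%) differed at an adjusted p under 0.05, 399 higher (0.886%) and 797 lower (1.77%) in the smaller series. They named 325 genes with a higher and 460 with a lower probe set, 4 of them in both. All 1196 had WT 393 on the same side as the call and outside the range of the 5 larger-series arrays, which the choice by adjusted p favours, and the median absolute log2 difference from the larger series was 1.14 in WT 393 and 1.60 in WT 392. The count changed with each array left out: it was 644, 101, 207, 279 and 184 without WT 206, 41, 437, 385 and MS17. Without WT 392 limma called 0 probe sets, with 1963 higher and 2365 lower ones at an unadjusted p under 0.05, and without WT 393 it called 4811. In both of these fits the smaller series is a single array, assumed to vary like the 5 others. Since both arrays of the smaller series have low Xist, the level of Xist was added as a covariate after the data were seen, which left 65 calls. The series and whatever else the 2 samples share cannot be told apart.

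The named probe sets show the size of these differences. Rps10, a ribosomal protein gene, read 10.37 and 10.60 in WT 393 and 392 and 7.91 to 8.37 in the 5 others, a log2 difference of 2.28 (SE 0.22, limma adjusted p = 0.0076), and 4 of its probe sets were called higher. Mrpl2, of the mitochondrial ribosome, read 10.65 and 11.03 against 8.94 to 9.29, and Add1, α-adducin of the membrane skeleton, 12.93 and 13.47 against 11.32 to 11.79. Lower in the smaller series was Eif5, a GTPase activator of translation initiation, at 8.47 and 8.22 against 10.36 to 10.86, a log2 difference of -2.33 (SE 0.19, limma adjusted p = 0.0076). Its brightest probe set, however, read 13.59 and 13.70 in the group means, a log2 difference of -0.11 with a limma adjusted p of 0.81. Npepps, a cytosolic aminopeptidase, read 9.22 and 9.01 against 11.10 to 11.85, and its other probe sets were not called. Epha4, an ephrin receptor of axon guidance, had 3 probe sets called lower, one of them at 8.51 and 7.80 against 10.59 to 11.28, a log2 difference of -2.83 (SE 0.25, limma adjusted p = 0.0076).

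Kalrn, bright and flat in its leading probe set (15.29 and 15.25 in the group means), had 2 others that were called lower. Counts by list stand beside 0.886% of all probe sets called higher and 1.77% lower, and like those they are 0 without WT 392. These are counts of probe sets, and several can belong to 1 gene. Of 106 probe sets (50 genes) of cytosolic ribosomal proteins 9 were higher, several of them of Rps10, and 0 lower. Of 180 (91 genes) of the respiratory chain 8 were higher and 0 lower, and of 37 (15 genes) of glycolysis and the malate shuttle 5 and 1. Of 88 probe sets (21 genes) of forebrain transcription factors 1 was higher and 9 lower, and of 29 (10 genes) of GABA-A receptors 0 and 3. In the granule neuron list 0 of 43 were higher and 2 lower. The shares over all probe sets include many dim ones. After a filter on dim probe sets, 881 of 21232 were higher and 1490 lower, a larger share than over all. The lists were not set beside probe sets of like brightness, so their counts are a description. The genes with a lower probe set spanned a median of 57539 bases of the genome (GRCm38.p6), those with a higher one 14076 and all measured genes 20222.

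The same split in KO, with 2 arrays of the smaller series and 6 of the larger series, shares no samples with the WT comparison. By itself it gave 2 calls of 45037 (0.00444%, limma adjusted p under 0.05), a probe set each of Gm5617 (higher) and Tmem255a (lower), each 0.00222% of those tested, beside 2548 higher and 2681 lower probe sets at an unadjusted p under 0.05. Without the KO library labelled 433 there were 16 calls, without KO 903 there was 1, and without KO 384, 386, 391, 390 or MS15 there were 0. Of the 1196 probe sets called in WT 1135 (94.9%) had the same sign in KO, against 65.0% of all probe sets, and 59.6% had the same sign and an unadjusted p under 0.05, against 9.93% of all. As in WT, both KO arrays of the smaller series have low Xist, at 7.51 in KO 391 and 7.87 in KO 390. In the larger series Xist read 14.12 to 14.49 in KO 903, 384 and 386, 11.48 in KO 433, and 7.31 and 7.78 in KO 212 and MS15. Xist was not added as a covariate in KO, so the part of Xist in the shared signs was not tested. For the same probe sets as above the log2 difference in KO was 2.28 for Rps10, -2.14 for Eif5 and -2.67 for Epha4, none of which passed the threshold there (limma adjusted p = 0.055, 0.10 and 0.13). Others were smaller in KO: Tcta had 2.60 in WT and 1.17 in KO, Cnksr2 1.76 and 0.10, and Tcstv3 1.06 and -0.11. Over the 1196 the median absolute log2 difference was 1.37 in WT, where they were chosen, and 0.816 in KO. A limma test of the difference between KO and WT in the series effect called 0 probe sets (1018 with a positive and 1160 with a negative difference at an unadjusted p under 0.05).

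**Figure D5:**
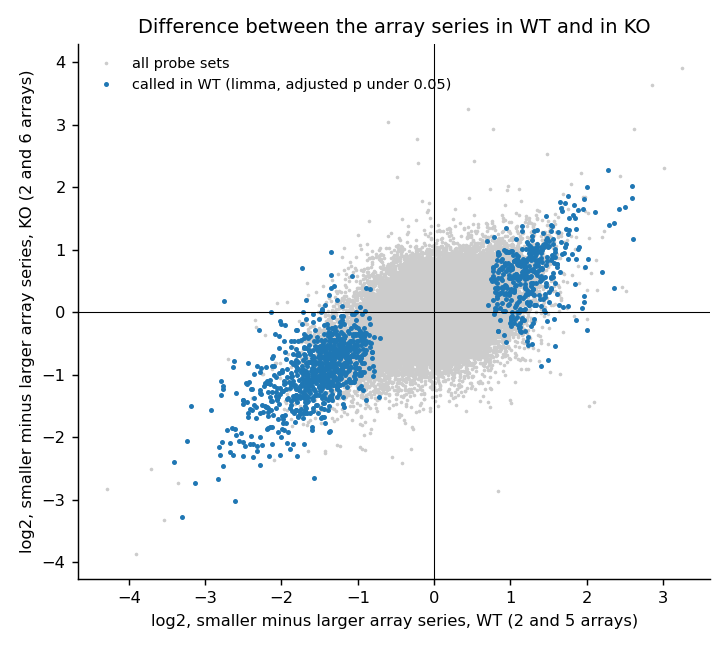
log2 difference between the smaller and the larger array series in WT (x axis, 2 and 5 arrays) and in KO (y axis, 2 and 6 arrays) for 45037 probe sets (grey), with the 1196 called in WT in blue. Of the blue points 94.9% have the same sign on both axes, against 65.0% of all points.

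Among the 20 most variable genes, Creg2, a secreted glycoprotein of the brain, and Frmpd1, a scaffold protein, were called between the series. Creg2 read 6.61 and 6.26 in WT 393 and 392 and 7.99 to 10.53 in the others (log2 difference -3.24, limma adjusted p = 0.026). Frmpd1 read 8.06 and 9.08 against 5.56 to 7.53 (log2 difference 2.59, limma adjusted p = 0.044). Of the 100 most variable genes 21 were called, against 2.23% of all genes by their brightest probe set. These genes were chosen for their spread in the same arrays, so the count is a description.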

How the data were processed

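The arrays were Affymetrix mouse expression arrays, which read each transcript by probe sets near its 3′ end. The values deposited by the authors are linear signal intensities, 1 column per array; the submitters' processing notes name MAS5 without a version, and the study's methods name RMA for its own analysis. The table has a like trimmed mean on every array and no counts, so the number of arrays limits the precision. Control probe sets at the 3′ end read far above those at the 5′ end on every WT array. The log2 difference was 5.11 to 6.23 for Gapdh and 5.43 to 6.23 for actin. The part of this 3′ bias in dim readings and in differences between probe sets of a gene was not tested. Probe sets were named from GEO's platform annotation: of 45037 used, 34945 had 1 gene symbol, 932 several and 9160 none, and 64 control probe sets were left out.

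Values were turned to log2(signal + 32) and quantile normalized over the 7 WT arrays (over the arrays compared, for other sets). Each gene was read by its brightest probe set. The background was the 95th percentile of the means of 69 receptor genes. The array series was tested with limma 3.58.1 (R 4.3.3; lmFit and eBayes with an intensity trend) over all probe sets with Benjamini-Hochberg adjustment. Descriptions were computed with Python 3.11.15, numpy 2.4.6, pandas 2.3.3 and statsmodels 0.14.6, and the limma step was tested on simulated data. No file columns were left unused. Promoters and gene lengths are from RefSeq (GRCm38.p6).

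Genes were named by rule: Prox1, Calb1 and Foxo1, the 20 brightest, the 20 with the highest SD, the next 10 by SD over its trend, up to 4 brightest and 2 most variable genes of each list, and up to 10 probe sets in each direction between the series. Prm2, Ttc3, Miat, Norad, Ddn, Nr3c2, Nr3c1, Insr and Tmem255a were named after their values were seen. The members, the lists and the rule were chosen with earlier results of these data known, and the thalamic and hypothalamic lists were added later. Alternatives were the added value, the normalization, the choice of probe set, the background, the arrays left out and the limma settings.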

Additional observations from a re-analysis of the deposited data

Results flagged for a closer look

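Of 119 genes named and 41 list means over the 7 WT arrays, 10 genes and 3 list means had an array that lay far from the other 6. Chance sets apart about 1 in 20 groups of independent, normally distributed values. Some of these genes were chosen for their spread over the same arrays or named after their values were seen. The counts are therefore a description and are not compared with that rate. In 8 of the 10 genes and 2 of the 3 lists that array was WT 392. It was the lowest for Fos (7.40, next 9.36), Homer1 (10.79, next 11.94), Gabra4 (11.13, next 12.03), Bcl11b (12.48, next 13.22), Norad (14.26, next 14.91) and Cntd1 (15.11, next 15.27), and for the mean of the immediate early genes (8.26, next 8.70). It was the highest for Sbsn (12.43, next 11.20) and Gm5617 (9.67, next 6.79), and for the mean of the cytosolic ribosomal protein genes (12.51, next 12.07). WT 437 was highest for Sim1 (7.89, next 7.36), WT MS17 for Gm34303 (10.84), and WT 206 for the mean of the interferon and antigen presentation genes (7.29, next 7.07). What sets these arrays apart was not tested.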

How the results depend on the processing

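The number of genes above background stayed between 9365 and 11309 under every alternative run. The lists with a median above it were 22 to 27 of 39 over the alternatives run for them. Other background limits and reference genes were not among these. Of the brightest genes 19 or 20 remained without any 1 array. With the median of the probe sets 6 of the 20 brightest remained, and with only probe sets without suffixes 1. Of the 20 most variable genes, 10 remained with 1 added before the log, 10 with the median of the probe sets, 13 without suffixed sets, 12 on the 5 arrays of the larger series and 9 by the median absolute deviation, and 14 to 19 remained without any 1 array. The series comparison in WT gave 2371 calls of 21232 probe sets after a filter on dim ones, 726 without the intensity trend, 65 with the level of Xist as a covariate (chosen after seeing the data), 4422 over the 15 unmarked arrays with genotype as a term, and 0 to 4811 without any 1 array. In KO it gave 11 calls with 1 added before the log, 5 with a larger value, 1 without quantile normalization, 1 without the trend and 0 to 16 without any 1 array. Beyond the smaller number of samples or probe sets in some of these, the cause was not tested. Dim signals limit what can be read from spread: the count of genes with an SD of at least 1 was 3016 with 1 added before the log and 43 with a value larger than 32. No paired analysis was possible because the marks of WT and KO samples do not repeat between the array series or the genotypes.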
